A study of Mus musculus with 48 samples.

Results

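T cell receptor beta chain (TCRβ) features were compared between the CD4+ and CD8+ T cells of the same tumors in 4 mice. All 16 CD4+ and all 16 CD8+ tumor libraries of the series were used, matched by mouse, side and fragment, 32 of 48 libraries in total, and the 16 lymph node libraries were not used here. Every group was from 8-week-old female C57BL/6 mice (C57BL/6J in the methods) bearing Lewis lung carcinoma (LLC), a C57BL/6 lung tumor line, injected under the skin of both sides of the back and collected on day 13. Each tumor was cut into 2 fragments, and viable TCRβ+ cells that were negative for the lineage markers CD11b, B220, NK1.1 and Ter119 were sorted from each fragment as CD4+CD8- or CD8+CD4- cells. Cells stained by an antibody against CD45.2 given into the circulation were excluded, so that blood cells in the vessels were left out. The CD4+ gate did not separate regulatory from conventional T cells, and the labels do not give activation markers for the tumor cells. Only TCR transcripts were sequenced, so the sorted identity could not be checked against CD4, CD8 or other marker genes.

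TCRβ is assembled in the thymus by joining 1 V, 1 D and 1 J segment, with bases removed and added at the joints. CDR1 and CDR2 are encoded by the V segment and lie mainly over the MHC molecule, and CDR3, which spans the joints, lies mainly over the peptide. CD4+ T cells are selected on MHC class II and CD8+ T cells on MHC class I, and both use the same V, D and J segments. In a tumor, T cells that meet their antigen divide, so a repertoire can be described by the share of reads, which follows the expanded clones, or by the share of distinct clones, in which each rearrangement counts once.

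A clone here is 1 combination of V, J and CDR3 bases, and its frequency was averaged over the 2 fragments of a tumor and then over the left and right tumors of a mouse. The mouse was the replicate, and values are given for mice 5, 6, 7 and 8 in that order or as mean ± SD (n = 4 mice). A difference was called at an adjusted p under 0.05 in a limma fit of log2(percent + 0.01) across all segments, pairs, length classes or residues, with the mouse as a block. All log2 differences are CD8+ over CD4+. Single values were compared by the exact permutation test over the 70 splits of 8 values, two-sided, for which the smallest p is 0.0286.

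The germline ends of segments that the results below turn on, by clones or by reads, are shown because they supply the edges of CDR3. For the V segments, the sequence runs from the codon of the conserved cysteine, in capitals, to the end of the annotated segment. For the J segments, the capitals mark the bases that can enter CDR3.
TRBV12-1: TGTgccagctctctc
TRBV12-2: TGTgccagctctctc
TRBV1: TGCacctgcagtgcaga
TRBV26: TGTgccagcagtctgtc
TRBV31: TGTgcctggagtct
TRBJ2-1: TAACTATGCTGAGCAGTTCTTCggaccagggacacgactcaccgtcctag
TRBJ2-7: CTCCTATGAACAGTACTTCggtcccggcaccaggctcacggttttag
TRBJ2-4: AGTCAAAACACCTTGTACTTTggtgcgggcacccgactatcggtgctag
TRBJ1-3: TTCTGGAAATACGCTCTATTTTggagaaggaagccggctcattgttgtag
TRBJ1-5: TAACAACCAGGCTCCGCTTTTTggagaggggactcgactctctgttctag
These are the GRCm38 sequences of GENCODE. TRBV12-1 (chr6:41113550-41114067) and TRBV12-2 (chr6:41118851-41119364) have the same CDR3 end and shared 340 of 385 aligned bases, an identity of 88.3%, so their reads may be hard to tell apart, and how well they were separated was not tested. TRBV1 (chr6:40891229-40891885) is the V segment farthest from the J clusters, and TRBV31 (chr6:41557691-41558452) lies on the reverse strand beyond them. TRBV26 (chr6:41227505-41227993) lies between TRBV24 (chr6:41218091-41218557) and TRBV29 (chr6:41271394-41271881), on the forward strand like TRBV12-1, TRBV12-2 and TRBV1.

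The deposited tumor libraries held 411355 to 4840722 reads, which is 8.61 to 47.2 reads per sorted cell, and each was drawn to 6 reads per sorted cell. The drawn CD4+ libraries held 3600 to 11891 clones and the drawn CD8+ libraries 8297 to 45512 clones. Before filtering, 260, 683, 1653 and 679 clones were found in both subsets of mice 5 to 8, between 0.629% and 5.58% of the clones of a subset. Clones found in both subsets before filtering held 61.3%, 67.4%, 52.6% and 66.6% of CD8+ reads and 6.88%, 13.5%, 36.2% and 15.7% of CD4+ reads. In these shares a clone was not counted on a side from which the filter described next left it out. It was still counted on a side where it was kept, even if it was left out of the other. Whether a clone seen in both subsets was a carried-over read or cell was not tested. A clone at least 100 times rarer in one subset than in the other of the same mouse was left out of the rarer side, which removed at most 0.351% of the clones and 0.157% of the reads of a library. Mouse 7 stood apart from the others in both subsets, with the most expanded CD4+ and the least expanded CD8+ repertoire, and results that rest on it are given without it.

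By distinct clones, the choice of V segment separated the 2 subsets in every mouse. Of 22 V segments tested, 19 were called (86.4%), 6 higher in CD8+ T cells (27.3% of the segments) and 13 lower (59.1%), and for 17 of the 22 (77.3%) the mouse values of the subsets did not overlap. The leading difference was in TRBV12-2, which made up 1.85%, 1.70%, 1.85% and 1.90% of CD4+ clones and 12.03%, 12.1%, 12.3% and 12.4% of CD8+ clones (log2 difference 2.74, SE 0.045, adjusted p = 3.60e-09). It was a minor segment of CD4+ T cells but the most used segment of CD8+ T cells in all 8 tumors, 6.69-fold higher than in CD4+ T cells. Its neighbor of the same family, TRBV12-1, made up 1.65%, 1.85%, 1.64% and 1.73% of CD4+ clones and 8.15%, 7.97%, 8.09% and 8.28% of CD8+ clones (log2 difference 2.23, SE 0.050, adjusted p = 1.48e-08). TRBV14 accounted for 1.98%, 1.70%, 1.58% and 1.37% of CD4+ clones and 4.03%, 3.76%, 3.84% and 3.88% of CD8+ clones (log2 difference 1.23). TRBV17 accounted for 1.61%, 1.90%, 1.82% and 1.69% of CD4+ clones and 3.75%, 3.98%, 3.82% and 3.92% of CD8+ clones (log2 difference 1.14). These 4 segments were higher in CD8+ T cells of each of the 8 tumors, and the mouse values within a subset were close together. TRBV16 rose less, from 6.19%, 5.86%, 5.43% and 5.18% of CD4+ clones to 7.52%, 7.79%, 7.56% and 7.65% of CD8+ clones (log2 difference 0.43), as did TRBV4, from 2.90% ± 0.152 to 3.87% ± 0.151 (log2 difference 0.42).

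Among the segments lower in CD8+ T cells, TRBV31 had the steepest difference, with 4.15%, 3.72%, 3.63% and 4.03% of CD4+ clones and 1.80%, 1.68%, 1.73% and 1.66% of CD8+ clones (log2 difference -1.17, SE 0.049, adjusted p = 5.46e-07). TRBV20 made up 4.21%, 3.89%, 3.84% and 4.36% of CD4+ clones and 1.92%, 1.91%, 1.79% and 1.80% of CD8+ clones (log2 difference -1.13). TRBV13-2, the most used V segment of CD4+ T cells, made up 15.7%, 18.2%, 18.5% and 18.4% of CD4+ clones and 8.64%, 8.31%, 8.27% and 8.44% of CD8+ clones (log2 difference -1.07, SE 0.061, adjusted p = 2.16e-06). These 3 segments were lower in CD8+ T cells of all 8 tumors, and the subsets did not overlap. TRBV2 followed, with 3.003%, 2.85%, 2.87% and 3.06% of CD4+ and 1.496%, 1.41%, 1.56% and 1.55% of CD8+ clones (log2 difference -0.97). TRBV1 made up 8.29%, 8.91%, 8.23% and 8.43% of CD4+ and 5.08%, 5.58%, 5.42% and 5.37% of CD8+ clones (log2 difference -0.66). For TRBV26 the means were 4.10% ± 0.279 and 2.53% ± 0.0501 (log2 difference -0.69). TRBV24, annotated as a pseudogene in GRCm38 although clones with an open frame were assigned to it, TRBV23, TRBV30, TRBV29, TRBV5, TRBV15 and TRBV19 were also lower, with log2 differences from -0.61 to -0.19. TRBV29 made up 4.87%, 6.47%, 6.65% and 6.44% of CD4+ clones and 4.82%, 4.61%, 4.65% and 4.92% of CD8+ clones, and the groups overlapped through mouse 5. The call was lost without mouse 7 for TRBV15, TRBV29 and TRBV30 (limma adjusted p = 0.069, 0.0594 and 0.0594).

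The other members of the TRBV13 family did not follow TRBV13-2. TRBV13-1 made up 6.06%, 6.87%, 6.91% and 6.55% of CD4+ and 6.55%, 6.85%, 6.57% and 6.48% of CD8+ clones (adjusted p = 0.911), and TRBV13-3 was at 5.57% ± 0.220 and 5.81% ± 0.1697 (adjusted p = 0.202). TRBV3, with 8.13%, 7.65%, 7.58% and 7.43% of CD4+ and 7.35%, 7.54%, 7.72% and 7.58% of CD8+ clones, was not called either (log2 difference -0.03, adjusted p = 0.603). Shares add up to 100%, so a higher share of some segments goes with a lower share of others. When counts were scaled by TMM factors, the median segment moved by 0.21 on the log2 scale, 9 segments were higher and 8 lower, TRBV13-1, TRBV13-3 and TRBV3 were called higher, and the calls of TRBV15, TRBV19, TRBV23, TRBV30 and TRBV5 were lost. DESeq2 size factors gave the same split of 9 and 8, and under both scalings TRBV19 and TRBV3 turned to the CD8+ side.

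**Figure D1:**
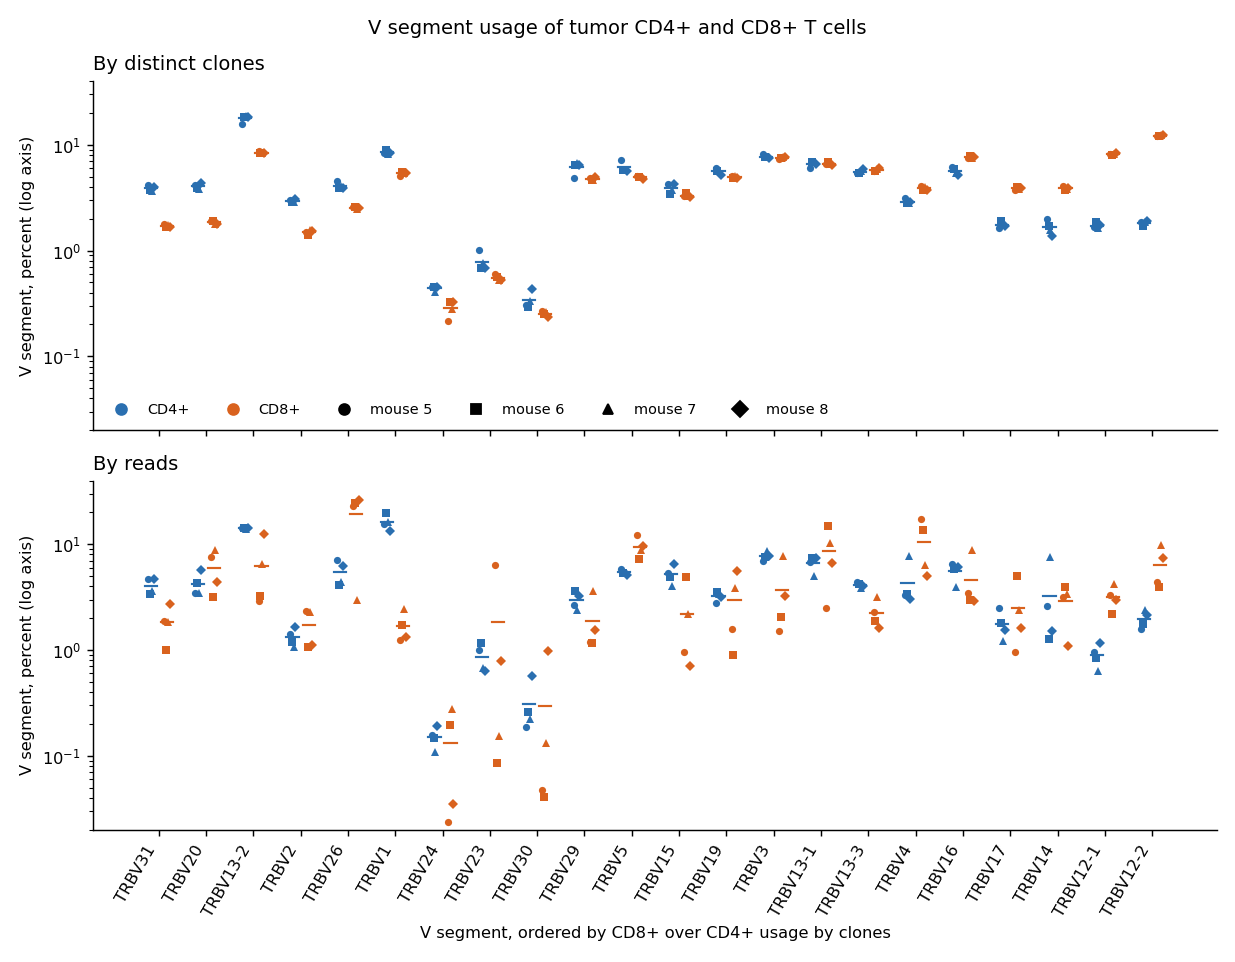
V segment usage in percent (log axis) of distinct clones (top) and of reads (bottom), with a point per mouse for CD4+ (blue) and CD8+ (orange) T cells and a line at the mean of 4 mice, for the 22 V segments tested. By clones the 4 mice of a subset nearly coincide, with TRBV12-2 at 1.82% and 12.2% on average. By reads the CD8+ values spread widely, as for TRBV26, from 2.96% in mouse 7 to 26.2% in mouse 8.

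By reads, in which expanded clones weigh most, 3 of 22 V segments were called (13.6%), 2 higher in CD8+ T cells (9.09%) and 1 lower (4.55%), and for 7 of the 22 (31.8%) the mouse values did not overlap. TRBV1 made up 15.5%, 19.9%, 16.3% and 13.3% of CD4+ reads and 1.23%, 1.73%, 2.44% and 1.34% of CD8+ reads (log2 difference -3.30, SE 0.43, adjusted p = 5.17e-04). It was the most used V segment by CD4+ reads in 6 of 8 tumors and, with a mean 9.64-fold lower in CD8+ T cells, was lower in each of the 8 tumors. The call of TRBV1 held without each of the mice. TRBV12-1 made up 0.957%, 0.847%, 0.632% and 1.16% of CD4+ and 3.31%, 2.17%, 4.21% and 2.95% of CD8+ reads (log2 difference 1.80, adjusted p = 0.0306). TRBV12-2 made up 1.56%, 1.77%, 2.37% and 2.14% of CD4+ and 4.35%, 3.98%, 9.75% and 7.401% of CD8+ reads (log2 difference 1.61, adjusted p = 0.0306). Both were higher in CD8+ T cells of all 4 mice, but leaving out mouse 5 raised their adjusted p to 0.0789 and 0.0947 in the limma fit, leaving out mouse 8 to 0.12 and 0.176, and leaving out mouse 6 raised that of TRBV12-2 to 0.0532. Both calls were also lost among clones of at least 0.01% of a tumor, with log2 differences of 1.57 and 0.81 (limma adjusted p = 0.14 and 0.279).

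The segment with the highest mean share of CD8+ reads, TRBV26, was at 22.8%, 24.7%, 2.96% and 26.2%, against 7.05%, 4.10%, 4.44% and 6.28% of CD4+ reads. It was high in 3 mice and low in mouse 7, and the difference was not called (adjusted p = 0.0876). Without mouse 7 it was called, with a log2 difference of 2.11. TRBV4 made up 17.3%, 13.5%, 6.33% and 4.98% of CD8+ and 3.28%, 3.36%, 7.70% and 3.01% of CD4+ reads (adjusted p = 0.123). TRBV5 made up 12.3%, 7.26%, 8.81% and 9.59% of CD8+ and 5.79%, 5.32%, 5.37% and 5.17% of CD4+ reads (adjusted p = 0.19). TRBV5 was higher in CD8+ T cells of all 8 tumors, whereas TRBV26 and TRBV4 were higher in 6 of 8. TRBV13-2 held 14.3%, 14.3%, 13.8% and 14.3% of CD4+ and 2.91%, 3.27%, 6.50% and 12.5% of CD8+ reads, without overlap (adjusted p = 0.0668). TRBV3 was at 6.89%, 7.58%, 8.71% and 7.69% of CD4+ and 1.53%, 2.05%, 7.79% and 3.27% of CD8+ reads, and TRBV15 at 5.38%, 4.87%, 4.01% and 6.57% and 0.965%, 4.87%, 2.17% and 0.709% (adjusted p = 0.0668 for both). TRBV3 was lower in CD8+ T cells of all 8 tumors and TRBV15 of 7, although the mouse values overlapped for both. TRBV13-1, at 6.77%, 7.39%, 5.01% and 7.35% of CD4+ and 2.51%, 15.0%, 10.3% and 6.67% of CD8+ reads, and TRBV16, at 6.44%, 5.86%, 3.97% and 6.12% and 3.46%, 2.998%, 8.82% and 2.93%, were not lower or higher in all CD8+ mice, and TRBV16 was higher in mouse 7 alone. Without mouse 7, 10 segments were called in place of 3, among them TRBV3 (log2 difference -1.76), TRBV4 (1.71) and TRBV16 (-0.97), with limma adjusted p = 0.0303, 0.0427 and 0.0427. TRBV15 was called without mouse 6 (log2 difference -2.18, limma adjusted p = 0.0186), and without mouse 5 or mouse 8 TRBV1 alone was called.

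Single clones held a large part of the CD8+ reads of some segments. Within a tumor, the largest clone held a median 69.2% of the CD8+ reads of TRBV20, 41.9% of those of TRBV26 and 44.3% of those of TRBV5, against 12.7%, 6.77% and 5.59% in CD4+ T cells (medians of 8 tumors). For TRBV1 the largest clone held 9.22% of CD4+ and 10.6% of CD8+ reads of the segment. With the 10 most frequent clones of each tumor left out, an alternative chosen after seeing the data, 7 segments were called by reads, with TRBV1, TRBV13-2 and TRBV3 lower and TRBV12-1, TRBV12-2, TRBV14 and TRBV4 higher in CD8+ T cells. TRBV26 was not among them (log2 difference 0.43, adjusted p = 0.345).

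V usage also differed between clone-size classes, in different ways for the 2 subsets. Clones under 0.01% of a tumor made up 88.5% of CD4+ and 99.5% of CD8+ clones, so the values by clones describe the rare clones above all. More CD8+ than CD4+ cells had mostly been sorted, so the same percentage mostly stands for more cells in CD8+ T cells. The part of this in the size classes was not tested. TRBV1 made up 7.73% ± 0.303 of CD4+ clones under 0.01%, 12.9% ± 1.37 of those of 0.01 to 0.1% and 22.6% ± 8.01 of those of 0.1 to 1%. In CD8+ T cells the corresponding shares were 5.37% ± 0.212, 5.42% ± 1.98 and 1.65% ± 2.07, and none of the 138 CD8+ clones above 1%, counted over 8 tumors, used TRBV1. Over these 3 classes the share of TRBV1 was thus higher in each larger class in each of the 4 CD4+ repertoires. The few CD4+ clones above 1% did not follow, with TRBV1 in 0%, 100%, 12.5% and 16.7% of them. Over the same 3 classes TRBV26 was higher in each larger class in every CD8+ repertoire, from 2.50% ± 0.0420 to 5.38% ± 0.548 and 10.1% ± 0.455, and also from 3.76% ± 0.241 to 6.54% ± 0.542 over the first classes of CD4+ T cells, but it was at 5.58% ± 1.61 of CD4+ clones of 0.1 to 1%. Above 1% it made up 18.2%, 20.9%, 0% and 26.3% of CD8+ clones. TRBV2 went from 1.48% ± 0.0735 of the rarest CD8+ clones to 5.62% ± 0.549 of those of 0.1 to 1%, and from 3.13% ± 0.199 to 0.736% ± 0.796 in CD4+ T cells. The order of the subsets was therefore turned around between the rarest and the 0.1 to 1% clones in all 4 mice for TRBV2 and TRBV26. The CD8+ clones of 0.1 to 1% numbered only 38.5, 47, 74.5 and 63.5 per tumor in mice 5 to 8, against 161.5, 151.5, 112.5 and 148.5 CD4+ clones. The CD8+ shares in this class thus rest on few clones. TRBV12-2 went from 12.2% ± 0.158 to 5.33% ± 3.03 of CD8+ clones, and stayed above its CD4+ share of 1.59% ± 0.240 in the latter class in all 4 mice. These differences between classes are a description and were not tested.

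When only clones of at least 0.01% of a tumor were counted, also chosen after seeing the data, 6 of 22 V segments were called by clones. TRBV12-1, TRBV12-2, TRBV4 and TRBV14 were higher and TRBV1 and TRBV3 lower in CD8+ T cells, with log2 differences of 2.55, 1.65, 1.65, 1.22, -1.81 and -1.32. TRBV2, TRBV26, TRBV29, TRBV5 and TRBV16 turned direction without being called. Fewer clones entered this count, 1788 CD8+ and 11676 CD4+ clones over 8 tumors.

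**Figure D2:**
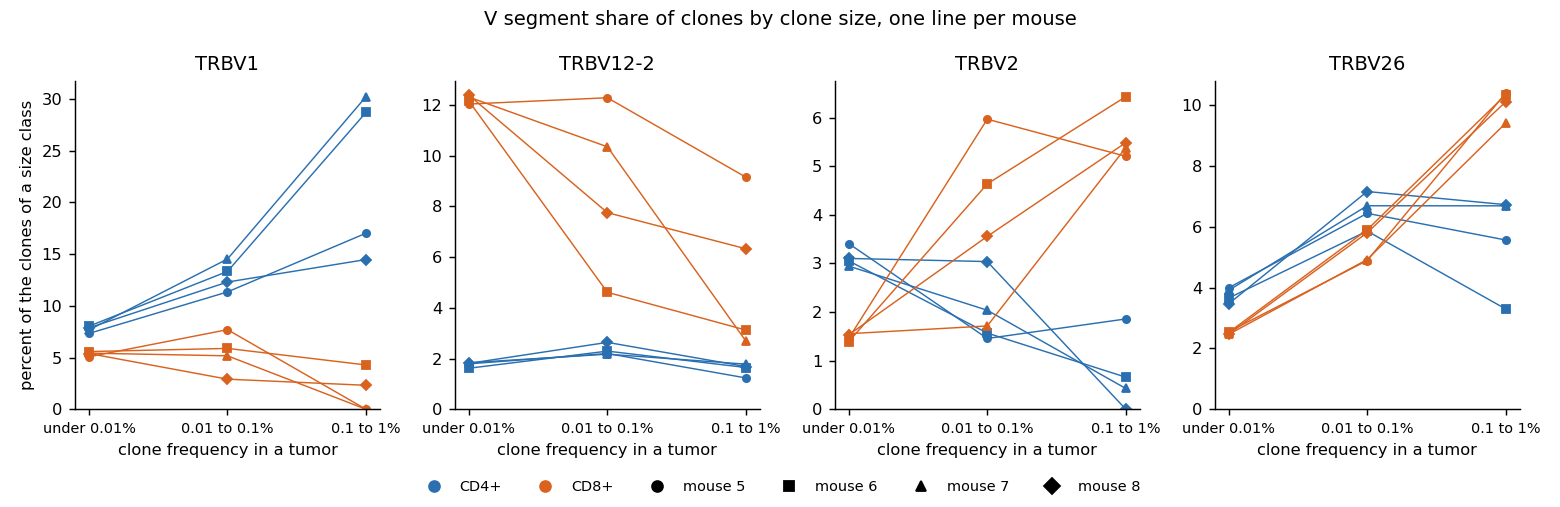
Share of TRBV1, TRBV12-2, TRBV2 and TRBV26 among the clones of each size class (percent of clones, linear axes that differ between panels), with a line per mouse for CD4+ (blue) and CD8+ (orange) T cells. Over the 3 classes drawn, TRBV1 is higher in each larger class in the CD4+ T cells of all 4 mice, to between 14.5% and 30.2%, and TRBV26 likewise in the CD8+ T cells of all 4 mice, up to between 9.42% and 10.4%. The class above 1% is not drawn because CD4+ tumors held few such clones.

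Differences between J segments by clones lay between -0.56 and 0.47 on the log2 scale. By clones, 10 of 12 J segments were called (83.3%), 3 higher (25%) and 7 lower (58.3%) in CD8+ T cells, and 8 (66.7%) did not overlap between subsets. TRBJ2-1 made up 10.6%, 10.8%, 10.8% and 10.8% of CD4+ and 15.0%, 15.1%, 14.7% and 14.9% of CD8+ clones (log2 difference 0.47, SE 0.026, adjusted p = 1.49e-07). TRBJ1-5 made up 3.72%, 3.53%, 3.58% and 3.201% and 2.31%, 2.31%, 2.47% and 2.39% (log2 difference -0.56, SE 0.041, adjusted p = 8.35e-07). TRBJ1-3 made up 6.29%, 5.85%, 5.79% and 5.84% and 4.37%, 4.22%, 4.09% and 4.33% (log2 difference -0.48, SE 0.027, adjusted p = 1.49e-07). In these 3 segments the subsets did not overlap, and every tumor showed the same direction. TRBJ2-7, the most used J segment of both subsets, was at 19.3% ± 0.317 of CD4+ and 22.2% ± 0.265 of CD8+ clones (log2 difference 0.20), and TRBJ1-6 was also higher (log2 difference 0.10). TRBJ1-2, TRBJ2-4, TRBJ1-1, TRBJ2-5 and TRBJ1-4 were lower, with log2 differences of -0.28, -0.22, -0.15, -0.10 and -0.07. TRBJ1-4 lost its call without mouse 6 or mouse 7 (limma adjusted p = 0.0986 and 0.0599). Its direction turned with TMM factors and with DESeq2. Among clones of at least 0.01%, TRBJ2-4 alone was called (-0.94 on the log2 scale), and TRBJ1-1, TRBJ1-2 and TRBJ1-6 turned direction. TRBJ2-2, whose direction turned in all 3 count fits, and TRBJ2-3 were not called (adjusted p = 0.404 and 0.102). With TMM factors 10 J segments were called, of which 8 were also called in the limma fit, so that TRBJ2-2 and TRBJ2-3 gained a call there. With DESeq2 8 were called, 7 of them also in the limma fit.

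The J segments form 2 clusters, each behind its own D segment, and a rearrangement to the first can be replaced by one to the second. The TRBJ1 cluster was used by 34.8%, 35.3%, 35.1% and 34.4% of CD4+ clones and 30.4%, 29.6%, 29.7% and 29.6% of CD8+ clones. The CD8+ share was lower by 5.04 ± 0.579 percentage points (exact permutation p = 0.0286). By reads the shares were 37.6%, 37.7%, 27.6% and 38.0% and 33.8%, 47.8%, 39.8% and 52.6%, which overlapped (exact permutation p = 0.2). Among clones of at least 0.01% the TRBJ1 cluster share by clones was higher in CD8+ T cells by 2.77 points (exact permutation p = 0.171).

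By reads, 1 of 12 J segments was called, lower in CD8+ T cells (8.33%), and 0 higher, with 2 at an unadjusted p under 0.05 in the limma fit. For 3 (25%), TRBJ2-4, TRBJ2-2 and TRBJ2-1, the subsets did not overlap. TRBJ2-4 made up 13.0%, 9.61%, 18.6% and 11.5% of CD4+ and 3.23%, 2.59%, 4.18% and 5.05% of CD8+ reads (log2 difference -1.81, SE 0.31, adjusted p = 0.00819), without overlap. Without mouse 8, TRBJ1-2 (log2 difference 1.35) and TRBJ1-5 (-1.87) were called as well (limma adjusted p = 0.0283 for both). With the 10 most frequent clones of each tumor left out, the log2 difference of TRBJ2-4 was -0.71 (limma adjusted p = 0.0396). Its call was lost without mouse 6 or mouse 7 (limma adjusted p = 0.0641 and 0.0751). TRBJ1-5 made up 2.77%, 3.28%, 2.20% and 3.60% of CD4+ and 0.422%, 0.691%, 1.35% and 12.6% of CD8+ reads (adjusted p = 0.468), where mouse 8 stood apart. TRBJ2-2 made up 5.88%, 5.65%, 5.35% and 5.97% and 2.37%, 3.01%, 4.80% and 2.40% (adjusted p = 0.16). TRBJ2-2 was lower in CD8+ T cells of all 8 tumors, although it was not called. TRBJ2-1, at 8.27%, 11.3%, 6.87% and 8.76% and 13.6%, 16.6%, 13.2% and 11.5%, was higher in all 8 (adjusted p = 0.223). The other 8 J segments, TRBJ1-1, TRBJ1-2, TRBJ1-3, TRBJ1-4, TRBJ1-6, TRBJ2-3, TRBJ2-5 and TRBJ2-7, had log2 differences from -0.64 (TRBJ2-5) to 0.79 (TRBJ1-2).

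The V-J pairs mostly followed their V segment. By clones, 165 of 235 pairs were called (70.2%), 63 higher (26.8%) and 102 lower (43.4%) in CD8+ T cells, and 156 (66.4%) did not overlap between subsets. Of the 165, 150 had the call of their V segment. All 12 pairs of TRBV12-1 and of TRBV12-2 were higher, as were 11 of 12 of TRBV14, and all 12 pairs of TRBV13-2, TRBV20 and TRBV31 were lower. TRBV12-2 with TRBJ2-2 rose most, from 0.0616% ± 0.0414 of CD4+ to 0.958% ± 0.0433 of CD8+ clones (log2 difference 3.97, SE 0.33, adjusted p = 4.15e-05). TRBV12-2 with TRBJ2-1, TRBJ1-1 and TRBJ1-6 followed, with log2 differences of 3.25, 3.18 and 2.70. TRBV13-2 with TRBJ1-3 fell most, from 1.11% ± 0.108 to 0.257% ± 0.0194 (log2 difference -2.07, SE 0.12, adjusted p = 8.74e-06). It was followed by TRBV20 with TRBJ1-4 and with TRBJ2-5 and by TRBV31 with TRBJ1-4 (log2 differences -1.59, -1.58 and -1.57). When only clones of at least 0.01% were counted, 21 of 231 pairs were called, 15 of them also called among all clones, and 114 of the 165 had the same sign. The pairs that fell most over all clones joined a V and a J segment that were each lower in CD8+ T cells.

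The difference of a pair was mostly close to the sum of the differences of its V and its J segment, within 0.5 on the log2 scale for 216 of 235 pairs. The median distance from the sum was 0.19 and the largest 1.26. The pairs that rose and fell most by clones, TRBV12-2 with TRBJ2-2 and TRBV13-2 with TRBJ1-3, lay more than 0.5 beyond their sums. By reads, 62 of 221 pairs were called (28.1%), 11 higher (4.98%) and 51 lower (23.1%), and 80 (36.2%) did not overlap. Without mouse 5 the count was 39 and without mouse 6 it was 22. All 12 pairs of TRBV1 were lower by reads, and the higher ones used TRBV12-1 and TRBV12-2 (3 pairs each), TRBV4 (3 pairs), TRBV20 with TRBJ1-2 and TRBV26 with TRBJ1-6. The median pair was 0.96 lower in CD8+ T cells on the log2 scale by reads, and with TMM factors, which moved the median by 1.28, 17 pairs were higher and 11 lower.

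**Figure D3:**
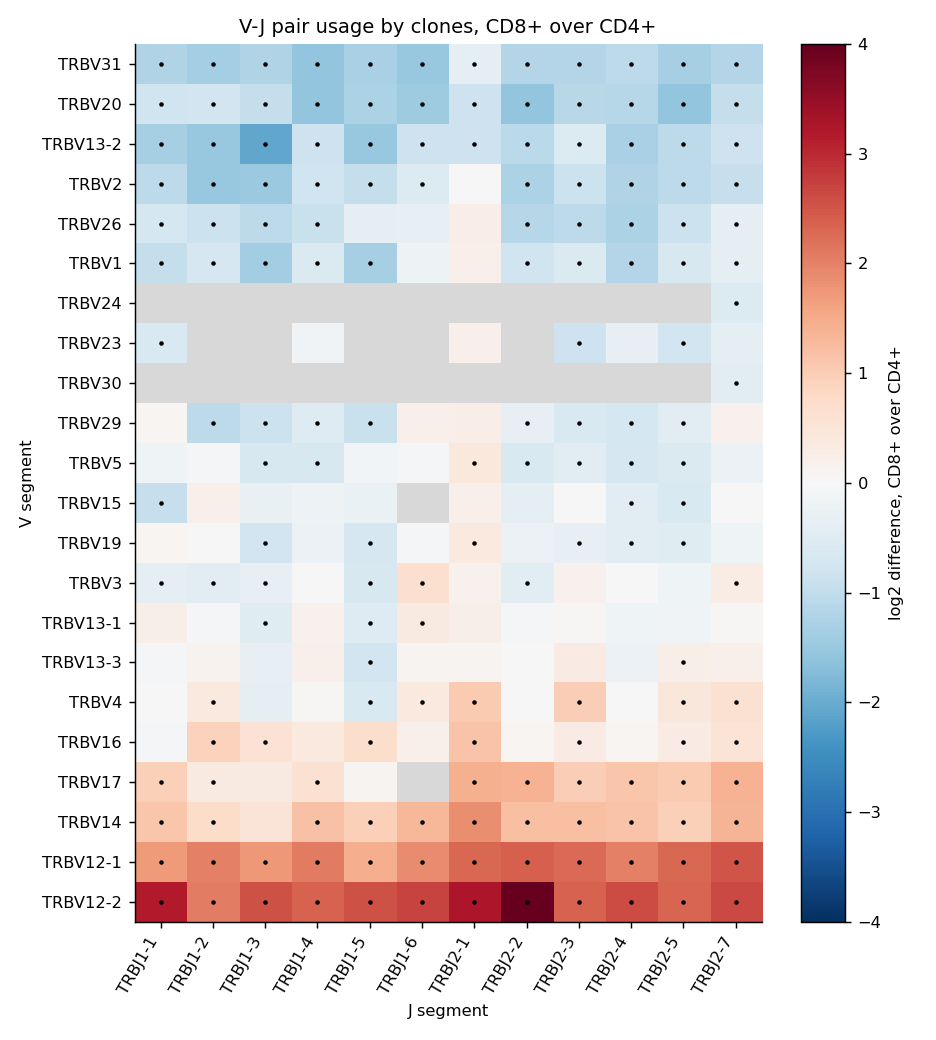
Log2 difference of V-J pair usage by distinct clones, CD8+ over CD4+ T cells (mean of 4 mice, red higher and blue lower in CD8+ T cells), for 22 V segments and 12 J segments. Dots mark the 165 pairs called and gray cells the pairs not tested, and most rows are of one color, with TRBV12-2 and TRBV12-1 at the bottom in red and TRBV31 and TRBV20 at the top in blue.

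CDR3 was longer in CD8+ T cells by clones, by less than 1 residue. The mean length, from the conserved cysteine to the conserved phenylalanine, was 13.85, 13.93, 13.91 and 13.92 amino acids in CD4+ clones and 14.04, 14.06, 14.05 and 14.07 in CD8+ clones. The difference of 0.151 ± 0.0219 was in the same direction in the 4 mice (exact permutation p = 0.0286). When both subsets were given the same V-J composition, over 216 pairs with 96.8% of the clones, it was 0.128 ± 0.0247 (exact permutation p = 0.0286). Within V segments, CD8+ CDR3s were longer in all 4 mice for 16 of 22 segments, up to 0.407 ± 0.0480 residues for TRBV2, and shorter in all 4 mice for TRBV29 (-0.403 ± 0.0352) and TRBV13-3 (-0.0200 ± 0.0226). By reads the lengths were 13.71, 13.66, 13.46 and 13.67 and 13.65, 13.87, 13.87 and 14.05, and mouse 5 went the other way (exact permutation p = 0.114). Without the 10 most frequent clones of each tumor the difference by reads was 0.185, which passed the threshold (exact permutation p = 0.0286).

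Of 9 length classes, 7 were called (77.8%), 4 higher (44.4%) and 3 lower (33.3%) in CD8+ clones, and 7 (77.8%) did not overlap. Lengths of 12 and 13 residues fell from 11.1% ± 0.292 to 8.70% ± 0.202 and from 21.1% ± 0.697 to 17.7% ± 0.171 (log2 differences -0.35 and -0.25), and that of 11 residues fell by 0.10 on the log2 scale. Lengths of 14, 15, 16 and 10 residues were higher, with log2 differences of 0.08, 0.14, 0.25 and 0.29. Without mouse 6 the classes of 10, 11 and 14 residues were no longer called (limma adjusted p = 0.0646, 0.0613 and 0.0636), nor was that of 10 without mouse 8 (adjusted p = 0.0721), and with TMM factors those of 10, 14 and 15 lost the call. With clones of at least 0.01% alone, 2 of 8 classes were called, 10 and 12 residues, and 13 and 14 residues turned direction. The bases between the last V and the first J base numbered 9.37, 9.495, 9.51 and 9.51 in CD4+ and 9.95, 10.0, 10.0 and 10.1 in CD8+ clones, while 25.0%, 25.4%, 24.5% and 24.8% of CD4+ and 20.7%, 20.4%, 20.7% and 20.4% of CD8+ clones had no assigned D segment. These 2 measures were given no test. The bases added by no template, counted outside the assigned D segment, were 3.40 ± 0.0533 and 3.43 ± 0.0591 per clone (exact permutation p = 0.543).

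The makeup of the central CDR3, without the 4 first and 4 last residues, differed for 17 of 20 amino acids by clones (85%), with 8 higher (40%) and 9 lower (45%) in CD8+ T cells, and the same number, 17 (85%), did not overlap between subsets. The residues that rose were mainly hydrophobic or aromatic. Tryptophan made up 2.24%, 2.19%, 2.26% and 2.33% of central residues in CD4+ and 3.72%, 3.89%, 3.82% and 3.77% in CD8+ clones (log2 difference 0.75, SE 0.024, adjusted p = 1.19e-05). Phenylalanine, leucine, tyrosine, valine, proline and histidine were also higher, with log2 differences of 0.39, 0.33, 0.30, 0.29, 0.24 and 0.12. The residues that fell were mainly polar or charged. Lysine and glutamine fell most (log2 differences -0.32 and -0.30), followed by glutamate, asparagine, threonine, serine and aspartate, with log2 differences of -0.19, -0.17, -0.15, -0.13 and -0.09. Glycine and alanine fell by 0.05 and 0.04, and arginine, isoleucine and methionine were not called. None of the 17 calls was lost when any 1 mouse was left out. Among clones of at least 0.01%, however, 3 of 19 residues were called, leucine and proline among them, and tryptophan, phenylalanine and histidine turned to log2 differences of -0.10, -0.092 and -0.059, not called.

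Cysteine, which can form disulfide bonds, had the largest ratio between the subsets. It made up 0.0239%, 0.0337%, 0.0401% and 0.0335% of central residues in CD4+ and 0.302%, 0.338%, 0.355% and 0.314% in CD8+ clones (log2 difference 2.99, SE 0.063, adjusted p = 5.79e-06). A central cysteine was present in 206 of 101754 CD4+ clones and 7096 of 350951 CD8+ clones, counted over 8 tumors, or 0.193% ± 0.0392 and 1.97% ± 0.149 of the clones of a mouse. All 7096 of these CD8+ clones were under 0.01% of their tumor, as were all but 8 of the CD4+ ones. Among clones of at least 0.01% a central cysteine was thus not seen in CD8+ T cells, in 1071 clones when a clone found in both tumors of a mouse counts once, which allows a share of up to 0.280%.

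**Figure D4:**
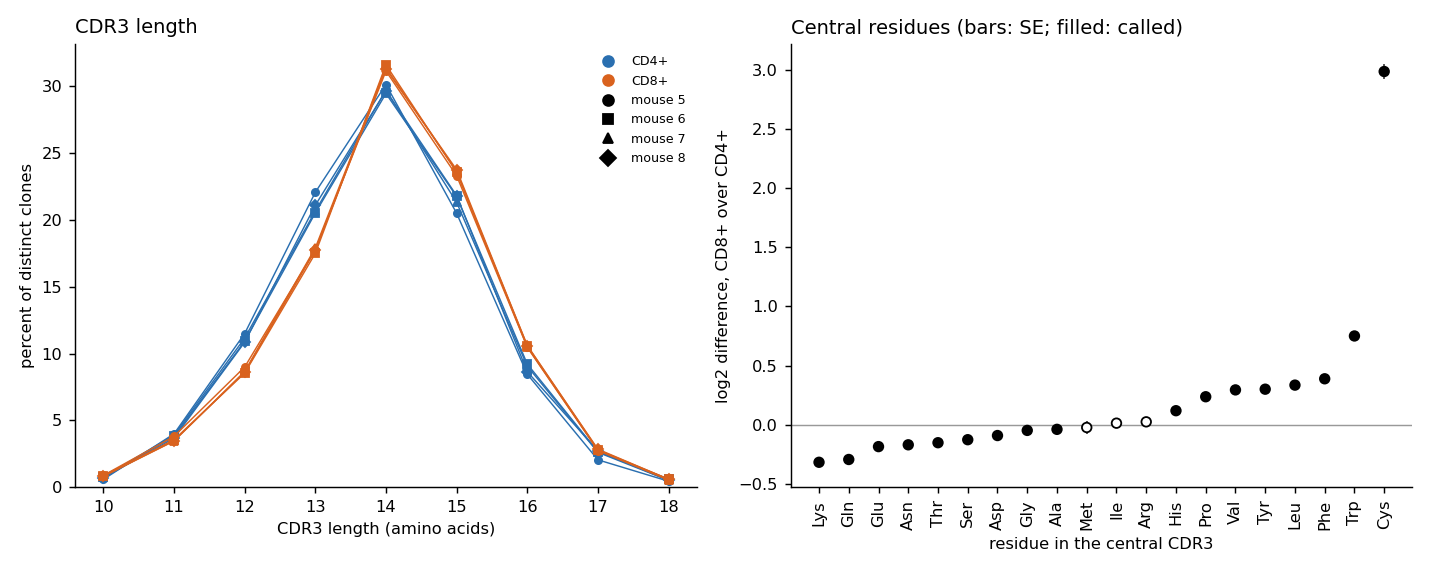
Left, percent of distinct clones by CDR3 length in amino acids, with a line per mouse for CD4+ (blue) and CD8+ (orange) T cells; the CD4+ lines lie above at 12 and 13 residues and the CD8+ lines above at 14 to 16. Right, log2 difference of each amino acid in the central CDR3, CD8+ over CD4+ by clones, with bars for the SE and filled points for the 17 called, from -0.32 for lysine to 2.99 for cysteine.

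As means over the CDR3, hydrophobicity on the Kyte-Doolittle scale was -0.234, -0.236, -0.238 and -0.246 in CD4+ and -0.207, -0.202, -0.203 and -0.204 in CD8+ clones. CD8+ CDR3s were thus less hydrophilic by 0.0345 ± 0.00565 (exact permutation p = 0.0286), by 0.0205 ± 0.00353 at one V-J composition, and by 0.188 ± 0.00765 over the central residues. Net charge, with arginine and lysine as +1 and aspartate and glutamate as -1, was -0.737, -0.780, -0.766 and -0.762 in CD4+ and -0.790, -0.787, -0.781 and -0.772 in CD8+ clones (exact permutation p = 0.0571). At one V-J composition CD8+ charge was lower by 0.0369 ± 0.00718 (exact permutation p = 0.0286), whereas over the central residues alone it was higher by 0.0567 ± 0.0158 (exact permutation p = 0.0286). The sign of the charge difference thus differed between the whole CDR3 and its central residues. By reads, neither charge nor hydrophobicity separated the subsets (exact permutation p = 0.714 and 0.429). Among clones of at least 0.01% the difference in CDR3 hydrophobicity by clones was -0.0207 (exact permutation p = 0.257) and that in CDR3 length by clones 0.110 (exact permutation p = 0.0571).

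The clone-size distributions were far apart. Clonality, 1 minus the normalized Shannon entropy, was 0.171, 0.171, 0.263 and 0.174 in CD4+ and 0.499, 0.494, 0.362 and 0.493 in CD8+ T cells (exact permutation p = 0.0286). Mouse 7 had the highest CD4+ and the lowest CD8+ value, and its difference was the smallest. The 10 most frequent clones held 9.22%, 8.16%, 22.9% and 7.84% of CD4+ and 55.9%, 44.7%, 32.4% and 44.9% of CD8+ reads (exact permutation p = 0.0286). Clones above 1% of a tumor numbered 2, 1, 8 and 2.5 in CD4+ and 16.5, 21.5, 12 and 19 in CD8+ T cells, as means of the 2 tumors of a mouse (exact permutation p = 0.0286). The fewest clones that together held 50% of the reads numbered 245.5, 359.5, 200 and 362 in CD4+ and 8, 13.5, 42 and 13 in CD8+ T cells. The subsets did not overlap in any of these measures.

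At the same time more distinct clones were detected in CD8+ T cells. The distinct clones of a tumor numbered 7572.5, 12008.5, 18307 and 12989 in CD4+ and 21959.5, 36760, 77914.5 and 38841.5 in CD8+ T cells (exact permutation p = 0.0286). The CD8+ libraries were drawn to more reads, with a median of 1232360 against 397161, since more cells had been sorted. With all libraries at an equal number of reads the difference in distinct clones was 14262 in place of 31149.6. An equal number of reads means fewer reads per cell where more cells were sorted, so this draw did not match depth per cell. It was 17392 with clones of at least 6 reads and 16369 in fragment 2 alone (both exact permutation p = 0.0571). Clones of 0.01 to 0.1% held 37.2%, 37.1%, 31.4% and 36.9% of CD4+ but 3.43%, 3.61%, 6.03% and 4.73% of CD8+ reads, so these clones held the smallest part of CD8+ reads. Clones above 1% held 3.02%, 2.10%, 21.3% and 3.01% and 64.1%, 61.2%, 34.9% and 58.0%. Clones under 0.01% held 19.6%, 26.4%, 25.1% and 26.7% and 18.3%, 17.9%, 35.8% and 16.6%, which overlapped. Counted from 0.01% upward, the difference in distinct clones per tumor was -1236, with fewer in CD8+ T cells. Reads per transcript can differ between cells, and no molecular identifiers were used, so the share of reads is not an exact share of cells.

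**Figure D5:**
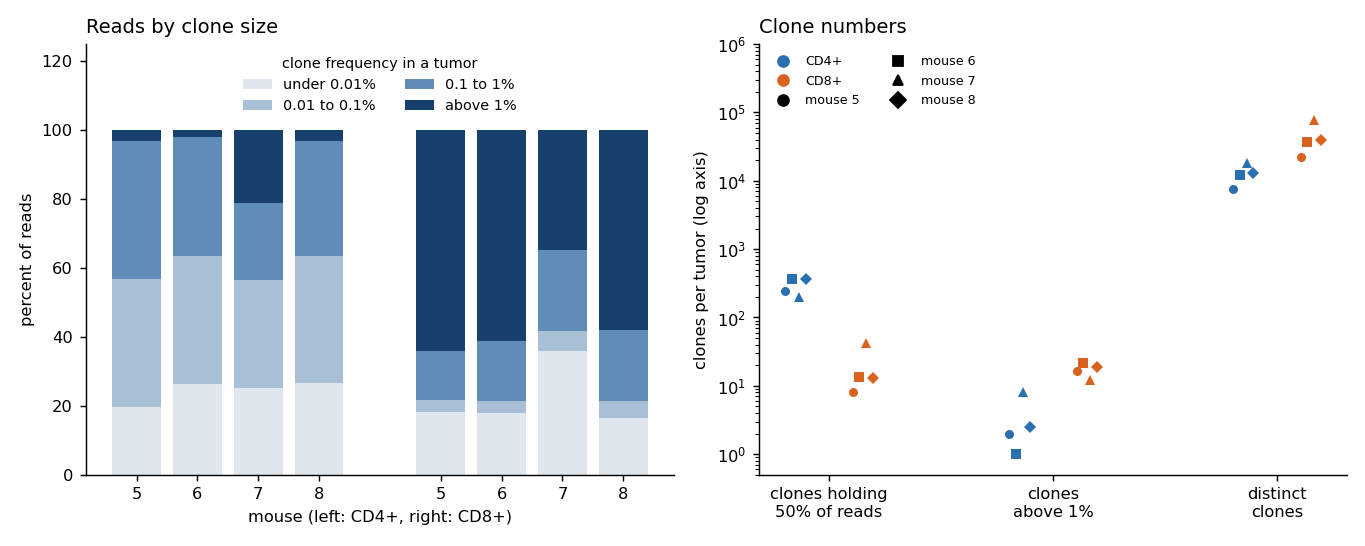
Left, percent of reads held by clones of 4 size classes (stacked bars, one per mouse, CD4+ then CD8+); clones above 1% hold 2.10% to 21.3% of CD4+ and 34.9% to 64.1% of CD8+ reads. Right, the number of clones per tumor (log axis) that hold 50% of reads, that exceed 1%, and in all, with a point per mouse for CD4+ (blue) and CD8+ (orange) T cells.

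The effective number of V segments, the exponential of the Shannon entropy of their usage, was 17.1, 16.3, 16.4 and 16.4 by CD4+ and 17.5, 17.5, 17.4 and 17.4 by CD8+ clones (exact permutation p = 0.0286). With all libraries at an equal number of reads the difference was 0.57 (exact permutation p = 0.0571). By reads the order was the other way round in 3 of 4 mice, with 15.7, 14.7, 15.2 and 16.1 in CD4+ and 12.4, 12.003, 16.8 and 12.8 in CD8+ T cells (exact permutation p = 0.143). Without the 10 most frequent clones of each tumor it turned, with CD8+ T cells higher by 1.35 (exact permutation p = 0.0857). Usage over V-J pairs by reads was equivalent to 139, 139.9, 107 and 150.4 pairs in CD4+ and 44.8, 48.5, 93.3 and 54.3 in CD8+ T cells. Of the 18 single values tested, 11 had the smallest exact permutation p, with a Benjamini-Hochberg adjusted p of 0.0468. With the mouse as a block, over the 16 sign changes of the 4 differences, p cannot go below 0.125, the value that each of these 11 had.

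The most frequent clone of each mouse and subset is shown with its CDR3 sequence because they hold the largest shares of reads. Capitals mark the bases between the last V and the first J base, by the positions that the deposited tables assign. Such bases come from the D segment or from untemplated addition. In the mouse 5 CD8+ and mouse 8 CD4+ clones, the part assigned to J begins with bases that the germline J segment lacks, gaa and g. There the capitals leave out bases that are not germline. The sequences are those of the deposited tables.
Mouse 5 CD4+ TRBV26 TRBJ1-1: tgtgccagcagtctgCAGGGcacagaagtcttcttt
Mouse 6 CD4+ TRBV1 TRBJ2-7: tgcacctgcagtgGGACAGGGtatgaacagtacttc
Mouse 7 CD4+ TRBV14 TRBJ2-5: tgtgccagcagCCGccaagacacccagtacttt
Mouse 8 CD4+ TRBV13-2 TRBJ1-2: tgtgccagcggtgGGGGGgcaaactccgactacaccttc
Mouse 5 CD8+ TRBV26 TRBJ1-3: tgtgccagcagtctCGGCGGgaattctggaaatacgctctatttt
Mouse 6 CD8+ TRBV26 TRBJ1-6: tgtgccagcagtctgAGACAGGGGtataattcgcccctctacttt
Mouse 7 CD8+ TRBV20 TRBJ1-1: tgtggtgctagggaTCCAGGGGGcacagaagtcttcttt
Mouse 8 CD8+ TRBV26 TRBJ1-5: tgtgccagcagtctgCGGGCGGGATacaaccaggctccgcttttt
The leading CD8+ clone used TRBV26 in mice 5, 6 and 8, with 3 different TRBJ1 segments, and TRBV20 in mouse 7. It held 8.57% ± 1.98, 13.8% ± 1.24, 7.84% ± 0.637 and 11.9% ± 3.24 of CD8+ reads (SD over the 4 libraries of the mouse). The CDR3s of the TRBV26 clones of CD8+ T cells all had 15 residues, with 6, 9 and 10 bases between V and J by the assigned positions. The leading CD4+ clone used TRBV26, TRBV1, TRBV14 and TRBV13-2 in mice 5, 6, 7 and 8, with no V segment in common. It held 1.69% ± 0.402, 2.10% ± 0.0487, 6.43% ± 1.21 and 1.24% ± 0.0513 of CD4+ reads. Each of these 8 clones was found in 1 to 4 libraries of the other subset of its mouse, at most at 0.0177% of reads, and was left out there.

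The last comparison asked whether the CD4+ T cells of a mouse used segments more like the CD8+ T cells of the same mouse than like those of other mice. The distance was the sum of the absolute differences in usage divided by 2, in percentage points, and was tested over all 24 pairings (one-sided, smallest p 0.0417). V usage by clones differed by 24.5 ± 0.748 points within mice (n = 4) and 24.5 ± 0.416 between mice (12 pairs, exact pairing permutation p = 0.333). By reads the distances were 43.1 ± 9.21 and 42.4 ± 8.27 (exact permutation p = 0.833). J usage gave 7.58 and 7.62 by clones and 27.97 and 27.1 by reads (exact permutation p = 0.167 and 0.792). No greater likeness within a mouse was thus detected at 6 reads per cell. With reads as deposited, V usage by clones was nearer within mice by 0.0923 points, at the smallest p (exact permutation p = 0.0417). For scale, the CD8+ T cells of 2 mice differed in V usage by 1.56 ± 0.293 points by clones and 32.7 ± 6.51 by reads, and the CD4+ T cells by 4.18 ± 2.01 and 11.1 ± 3.35 (6 pairs of mice each).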

How the data were processed

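TCRβ transcripts were amplified from sorted cells after template switching, without molecular identifiers, and sequenced. Per the paper's methods and the submitters' processing notes, the authors trimmed reads with Cutadapt (version 3.2) and PRINSEQ and assembled productive clones with MiXCR on IMGT segments. The deposited tables give for each clone its V, D and J segments, CDR3, the positions of the segment ends in CDR3 (another unit), the read count, which the authors did not normalize, and the share of the library's reads as a fraction. Deposited counts were above the 6 reads per sorted cell to which the authors' methods reduce each library, so every library was drawn without replacement to that number here (seed 13, cell numbers from the study's supplement).

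Frequencies were recomputed, clones at least 100 times rarer in the other subset of the same mouse were left out of the rarer side, and fragments and then sides were averaged. By clones, each clone detected in a tumor counts once, so values depend on depth, and shares and limits from counts cover counting error only. Samples with the same number are from the same mouse, as the labels state, which is the source of the pairing. Usage was fitted with limma (version 3.58.1, R 4.3.3) with the mouse as a block and Benjamini-Hochberg adjustment within each family, leaving out segments and pairs under 0.05% and length classes under 0.5% on average. Single values were tested by exact permutation (Python 3.11.15), without the block, since with 4 pairs the blocked test cannot pass 0.05. Alternatives were counts in edgeR (4.0.16) and DESeq2 (1.42.0), other pseudocounts and filters, other depths, fragments or sides alone, and each mouse left out. On simulated data for 235 V-J pairs by clones, 42.5% of changes of 0.5 and 92.5% of changes of 1 on the log2 scale were recovered. By rule, the named items are the V segments called, with mouse values for the 5 most used of each subset and the 4 that differed most in each direction, all J segments with mouse values for 3, the 4 V-J pairs that differed most in each direction, called residues and lengths, and the leading clone of each mouse and subset. TRBJ2-1 by reads, the clone-size classes and the segments followed over them were added after values were seen. The comparison, the lists and the rules were chosen with earlier results of these data known.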

Additional observations from a re-analysis of the deposited data

Results flagged for a closer look

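In each set of 4 mice of a subset, a mouse was marked where its gap to the nearest other mouse, divided by the range of the 4, was above Dixon's 95% critical value. This held for 19 of 148 sets, and chance marks about 1 in 20 sets. Mouse 7 was the marked mouse for 11 of them, mouse 5 for 7 and mouse 8 for 1.

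By reads, mouse 7 was marked in the CD4+ subset for TRBV13-2 (13.8%), TRBV4 (7.70%), TRBJ2-5 (16.3%), the TRBJ1 cluster (27.6%), clonality (0.263) and the share of the 10 most frequent clones (22.9%). In the CD8+ subset it was marked for TRBV16 (8.82%), TRBV26 (2.96%), clonality (0.362) and the effective number of V segments by reads (16.8). TRBV24 by clones was also marked through mouse 7 in CD4+ T cells (0.409%), and TRBJ1-5 by reads through mouse 8 in CD8+ T cells (12.6%).

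By clones, mouse 5 was marked in the CD4+ subset for TRBV13-2 (15.7%), TRBV29 (4.87%), TRBV5 (7.14%), TRBJ1-2 (5.34%), TRBJ1-3 (6.29%) and the effective number of V segments (17.1), and in the CD8+ subset for TRBJ2-4 (7.97%). The CD4+ libraries of mouse 5 held the fewest distinct clones, 7572.5 per tumor, and the part of depth in these values was not tested. None of the 15 single values compared between left and right tumors was marked.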

How the results depend on the processing

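Of the counts of calls under alternatives, 164 stayed within 1.5 times and 25 did not. Of the single values that were tested under an alternative, 285 kept their direction and side of the threshold, 5 lost a call, 3 gained one and 17 reversed. With a mouse left out the exact permutation test of a single value cannot go below 0.1, and with the block not below 0.125, so these alternatives bear on the values alone. The cause was not tested for any change. With each mouse left out in turn, the calls were 1 to 10 for V usage by reads, 0 to 3 for J usage by reads, 22 to 46 for V-J pair usage by reads and 4 to 8 for length classes, and of the single values only 2 turned direction, CDR3 charge by reads (-0.0263 to 0.1697) and V usage distance by clones (-0.127 to 0.0107).

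V usage by reads gave 6 calls with a pseudocount of 0.1%, 5 without the filter on low usage, 6 with TMM factors and 10 with DESeq2, against 3. J usage by reads gave 2, V-J pair usage by reads 28 and length classes 4 with TMM factors, and length classes 4 without the filter. By clones, TMM factors put TRBV19 at 0.018, TRBV3 at 0.19, TRBJ1-4 at 0.0040 and TRBJ2-2 at 0.076 on the log2 scale, and DESeq2 put TRBV19 at 0.029, TRBV3 at 0.20, TRBJ1-4 at 0.014 and TRBJ2-2 at 0.082, all reversed. Counts without scaling put TRBV13-1 at -0.028, TRBV3 at 0.024 and TRBJ2-2 at 0.0038, also turned, and none of these was called. Without the replicate block, V-J pair usage by reads gave 82 calls in place of 62, and the other 7 families gave the counts of the blocked fit. For the single values the block gave p = 0.125 at best in an exact test over sign changes.

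The next alternatives were chosen after seeing the data. With only clones of at least 0.01% of a tumor, the calls were 1 for V usage by reads, 6 for V usage by clones, 1 for J usage by clones, 21 for V-J pairs by clones, 2 for length classes and 3 for residues. The differences were 0.110 in CDR3 length by clones, -0.0207 in CDR3 hydrophobicity by clones, 2.77 in the TRBJ1 cluster share by clones, -1236 in distinct clones, and 0.0900 and 0.322 in the V and J usage distance by clones. Reversed on the log2 scale were TRBV16 (-0.19), TRBV2 (1.12), TRBV26 (0.23), TRBV29 (0.23), TRBV5 (0.16), TRBJ1-1 (0.24), TRBJ1-2 (0.53), TRBJ1-6 (-0.036), lengths of 13 (0.015) and 14 (-0.10), phenylalanine (-0.092), glycine (0.0072), histidine (-0.059), lysine (0.0026) and tryptophan (-0.10). Values at one V-J composition could not be had there, since too few pairs had enough clones. Without the 10 most frequent clones of each tumor, 7 V and 3 J segments were called by reads, and the differences by reads were 0.185 in CDR3 length, -0.0506 in CDR3 charge, -0.122 in the TRBJ1 cluster share, 1.35 in the effective number of V segments, and -0.0907 and -0.821 in the V and J usage distance.

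At an equal number of reads, and with clones of at least 6 reads, the difference in the effective number of V segments by clones was 0.570 and 0.410, and in J usage distance by clones 0.00271 and 0.0235. Distinct clones differed by 17392 with at least 6 reads and by 16369 in fragment 2 alone (both exact permutation p = 0.0571). CDR3 charge by clones differed by -0.0375 in fragment 1 alone and by 0.0567 without the 4 first and 4 last residues, which gave 0.0659 for CDR3 hydrophobicity by reads. V usage distance by clones differed by -0.0923 with reads as deposited (exact permutation p = 0.0417) and by 0.00926 in fragment 1 alone, and J usage distance by clones by 0.0518 in fragment 2 and 0.0437 in left tumors alone. Clones of 1 read were 2.39% to 4.84% of the clones of a CD4+ library and 7.93% to 11.4% of those of a CD8+ library, without overlap. With clones of at least 2 reads, the calls by clones were 19 for V usage, 10 for J usage, 7 for length classes and 17 for residues, as over all clones. For V-J pairs they were 169 in place of 165.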

Other observations

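CDR3 was shorter in expanded CD4+ clones. Clones under 0.01% of a tumor had a mean length of 13.9 ± 0.0313 amino acids, clones of 0.01 to 0.1% 13.7 ± 0.0430 and clones of 0.1 to 1% 13.6 ± 0.0594 (n = 4 mice). In CD8+ T cells the same classes had 14.1 ± 0.0135, 13.8 ± 0.168 and 13.9 ± 0.112 amino acids. The hydrophobicity of CDR3 in CD4+ T cells went from -0.246 ± 0.00375 through -0.195 ± 0.0165 to -0.0985 ± 0.0242 over these classes, and in CD8+ T cells from -0.204 ± 0.00189 through -0.213 ± 0.0288 to -0.194 ± 0.0728. These values were not tested.

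The net charge of CDR3 was lower in CD8+ T cells in all 4 mice for 15 of 22 V segments, most for TRBV17 (-0.230), TRBV2 (-0.205) and TRBV13-3 (-0.186), and higher in all 4 mice for TRBV23 (0.103), TRBV5 (0.0930) and TRBV12-2 (0.0710). The hydrophobicity was higher in all 4 mice for 6 V segments and lower for 5, from -0.0547 for TRBV4 to 0.129 for TRBV29. The TRBJ1 cluster took 29.8% ± 0.380 of CD8+ clones under 0.01% of a tumor, 35.3% ± 6.98 of those of 0.01 to 0.1%, 40.2% ± 5.30 of those of 0.1 to 1% and 44.8% ± 12.3 of those above 1%, without a steady rise in each mouse.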
